A study of Homo sapiens with 4 samples.

Results

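The mitochondrial chaperones, proteases and protein import genes were described as a group of 42 genes, found by symbol among the 26255 gene symbols of each library. All 42 passed the minimum level for testing, as did 12701 genes in total. The libraries came from HCT116, a human colorectal carcinoma cell line. In the knockout cells C14orf159 (now named DGLUCY, a mitochondrial matrix protein) was targeted with a guide that the file headers call sgDGLUCY, and control cells were of the same line. The controls are labelled as empty vector-transfected (EV control), while the file headers name them AAVS1, a genomic site often used as a neutral target. Each group held 2 libraries of polyadenylated RNA from untreated cells as far as the labels say. The labels do not say whether replicates were separate cultures or whether the knockout cells (KO) were 1 clone or several. The p-values therefore rest on library-to-library spread of unknown source, which may be purely technical in the EV controls. The KO libraries differed from each other in C14orf159 itself, as given below.

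Most mitochondrial proteins are encoded in the nucleus, made in the cytosol and imported unfolded. They cross the outer membrane through the TOM complex and then the inner membrane through the TIM23 complex, pulled in by an ATP-driven motor, or are inserted by the TIM22 complex with the help of small TIM chaperones. In the matrix a peptidase removes the targeting sequence, chaperones fold the protein, and ATP-dependent proteases remove what fails to fold. Loss of folding capacity is known to raise chaperone and protease genes in the mitochondrial unfolded protein response.

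C14orf159 itself, examined as a check of the labels, stood at 16.2 and 16.4 FPKM in the EV controls, 2.52 FPKM in KO 1 and 10.8 FPKM in KO 2. The level was thus 15.5% of the control mean in KO 1 and 66.2% in KO 2, and the group difference did not pass the test (log2 difference -1.42, SE 0.57, limma-trend adjusted p = 0.314), while each KO library alone did (adjusted p = 0.000517 for KO 1 and 0.0150 for KO 2). KO 2, the library labelled as the second knockout replicate, thus kept most of the transcript level, and protein was not measured here. KO 1 and KO 2 below mean the libraries so labelled. FPKM are fragment numbers scaled to transcript length and to library size. Depth, read roughly from the lowest values of genes that have 1 transcript, came to 12.5 to 13.4 × 10⁶ fragments per library. Epithelial markers were present in part: 7 of 12 were at 1 FPKM or more in every library, their summed level ranged from 3373 to 3546 FPKM in the EV controls and from 3352 to 3716 FPKM in KO, and VIL1, CDH17, GPA33, CEACAM5 and MUC2 were at or near 0. Of the fibroblast (5), immune (5) and endothelial (4) markers only CD68 reached 1 FPKM in every library, and the defining markers COL1A2, DCN, LUM, PTPRC and CD3E were listed at 0 throughout.

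The promoters of 6 genes on which the values below turn are shown first, in 5 stretches, taken from the RefSeq promoter table (GRCh38.p14, whereas the deposited values rest on hg19). HSPD1 and HSPE1, the chaperonin and its lid, are read outward from a shared promoter, and their starts lie 105 bases apart. HSPA9 and LONP1 encode the matrix chaperone mortalin and the matrix protease, and DNAJC19 and TIMM9 are the members with the smallest p-values. Capitals mark CACGTG, an E-box, and GCGCA followed after 1 base by GCGC, the core of the site read by the transcription factor NRF1, on either strand (the NRF1 match in the HSPD1-HSPE1 stretch lies on its opposite strand). Every sequence is 5′ to 3′. For the other 4 genes it runs from 250 bases before the start farthest upstream to the start itself.
HSPD1-HSPE1 (chr2:197500254-197500399, plus strand, from 20 bases inside HSPD1 to 20 bases inside HSPE1): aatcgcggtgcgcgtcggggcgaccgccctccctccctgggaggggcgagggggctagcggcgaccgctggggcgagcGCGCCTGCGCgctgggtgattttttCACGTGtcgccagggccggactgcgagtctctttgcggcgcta
HSPA9 (chr5:138575401-138575651, minus strand): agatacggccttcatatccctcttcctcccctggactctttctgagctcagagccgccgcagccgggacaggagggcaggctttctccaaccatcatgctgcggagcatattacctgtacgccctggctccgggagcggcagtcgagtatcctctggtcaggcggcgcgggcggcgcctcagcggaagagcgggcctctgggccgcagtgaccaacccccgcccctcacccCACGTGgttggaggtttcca
LONP1 (chr19:5720452-5720702, minus strand): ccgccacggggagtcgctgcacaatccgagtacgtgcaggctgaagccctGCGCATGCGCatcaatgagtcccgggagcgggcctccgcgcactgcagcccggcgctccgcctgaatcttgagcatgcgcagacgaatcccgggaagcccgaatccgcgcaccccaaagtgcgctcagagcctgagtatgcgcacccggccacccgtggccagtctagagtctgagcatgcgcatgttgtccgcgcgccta
DNAJC19 (chr3:180989838-180990088, minus strand): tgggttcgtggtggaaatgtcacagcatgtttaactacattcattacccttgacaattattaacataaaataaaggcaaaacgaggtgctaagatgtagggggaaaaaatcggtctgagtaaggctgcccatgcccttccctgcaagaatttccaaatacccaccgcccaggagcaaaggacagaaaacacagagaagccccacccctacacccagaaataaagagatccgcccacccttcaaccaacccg
TIMM9 (chr14:58427531-58427781, minus strand): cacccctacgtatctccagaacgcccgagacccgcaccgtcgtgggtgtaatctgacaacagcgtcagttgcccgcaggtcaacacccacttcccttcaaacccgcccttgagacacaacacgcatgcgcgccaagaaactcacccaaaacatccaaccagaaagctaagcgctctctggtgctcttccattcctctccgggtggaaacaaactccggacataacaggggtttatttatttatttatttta

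Promoter windows of 300 bases, 250 before and 50 after the start, were found for 37 of the 42 genes. CLPP, GRPEL1, TIMM8B, TOMM5 and YME1L1 were not matched. On both strands, with each motif searched by itself, the NRF1 letters were found for 14 of the 37 genes (37.8%), against 13.8% of 10069 tested genes with a window and 5.78% of all 35116 windows. The E-box was found for 7 (18.9%), which were HSPD1, HSPE1, HSPA9, LONP1 (at its other start), TOMM20, TIMM8A and TIMM10, against 12.8% of tested genes and 7.26% of windows. A heat shock element, written as GAA, TTC and GAA with 2 bases between neighbours and read by the heat shock factors, was found for HSPD1 alone (0.49% of windows), at the start that lies within the gene and outside the stretch printed above. TGATGNAAT, an amino acid response element of the kind read by ATF4, was found for PMPCB alone (0.991% of windows). CCGGAAGT, read by ETS factors, was found for 7 (18.9%, against 10.4% of tested genes and 4.14% of windows), and CCAAT for 11 (29.7%, against 43.4% and 34.6%). The E-box and the NRF1 match between HSPD1 and HSPE1 lie in the windows of both genes and were counted for each. These matches describe letters and no binding.

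To ask whether this machinery differed in cells labelled as C14orf159 knockout, the KO libraries were first compared as a group with the EV controls. None of the 42 genes passed over all genes tested (limma-trend, 0 higher and 0 lower at an adjusted p under 0.05, smallest adjusted p = 0.208), where 0.0551% of tested genes passed in each direction. At an unadjusted p under 0.05 TIMM9 was higher and DNAJC19 lower, each 1 gene of 42, against 9.23% and 7.22% of tested genes. The median log2 difference was -0.13 on the log2(FPKM + 1) scale, beside 0.0031 over all tested genes, and lay below 0 for 33 of the 42, where 49.5% of tested genes did so. Without KO 1 this median was 0.022, and without KO 2 it was -0.20. Both KO libraries lay below both EV controls for 17 genes and above them for 2, where 25.6% and 26.5% of tested genes did so. In bulk RNA, fewer cells with a high level and less RNA per cell cannot be told apart.

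The KO libraries differed from each other more than the controls did. The median distance between replicates over the 42 genes was 0.036 between the EV controls and 0.26 between the KO libraries on the log2 scale, and 0.073 and 0.17 over all tested genes. The KO replicates were further apart than the EV replicates for 36 of the 42 genes, as for 73.4% of tested genes. KO 2 was above KO 1 for 37 genes, where 52.1% of tested genes had that order. The exceptions were GRPEL2, YME1L1, OMA1, TOMM70A and DNAJC19. The order was not particular to these genes. It held for 27 of 28 cytosolic chaperones, 72 of 77 mitochondrial and 75 of 76 cytosolic ribosomal proteins. Among other import and quality-control genes it held for 18 of 30. Each KO library was therefore also set alone against the EV controls.

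In KO 1 the machinery was lower almost throughout. This library lay below both EV controls for 38 of the 42 genes, where 42.8% of tested genes did so, and above both for OMA1 and TIMM9, where 41.3% did so. Cytosolic chaperones shared this, with KO 1 below both controls for 24 of 28. So did 54 of 77 mitochondrial ribosomal proteins, 17 of 30 other import genes and 34 of 76 cytosolic ribosomal proteins. The median difference of the 42 genes from the control mean was -0.20 (from -0.57 for HSPD1 to 0.22 for TIMM9), and -0.0043 over all tested genes. With KO 2 left out, 18 genes were lower and 0 higher at an adjusted p under 0.05 in limma-trend, against 6.94% and 6.29% of tested genes. At an unadjusted p under 0.05 this fit gave 26 lower and 1 higher, against 17.4% and 15.7%. In KO 2 the 42 genes scattered around the controls: 17 lay below both and 21 above both, where 41.4% and 45.7% of tested genes did so, and the median difference was 0.022. With KO 1 left out, CLPP, TOMM5, TOMM7 and TIMM9 were higher and DNAJC19 lower, against 10.9% and 6.62% of tested genes. At an unadjusted p under 0.05 this fit gave 7 higher and 4 lower, against 21.8% and 16.8%. DNAJC19 was the single member called in the same direction in both of these fits (lower in both for 1.7% of tested genes, higher in both for 0 members and 2.95% of tested genes). A lone KO library is assumed to vary like the EV controls. Such p-values therefore rest on the distance between the EV controls, for the gene itself and over all tested genes. They say nothing on other KO cultures.

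**Figure D1:**
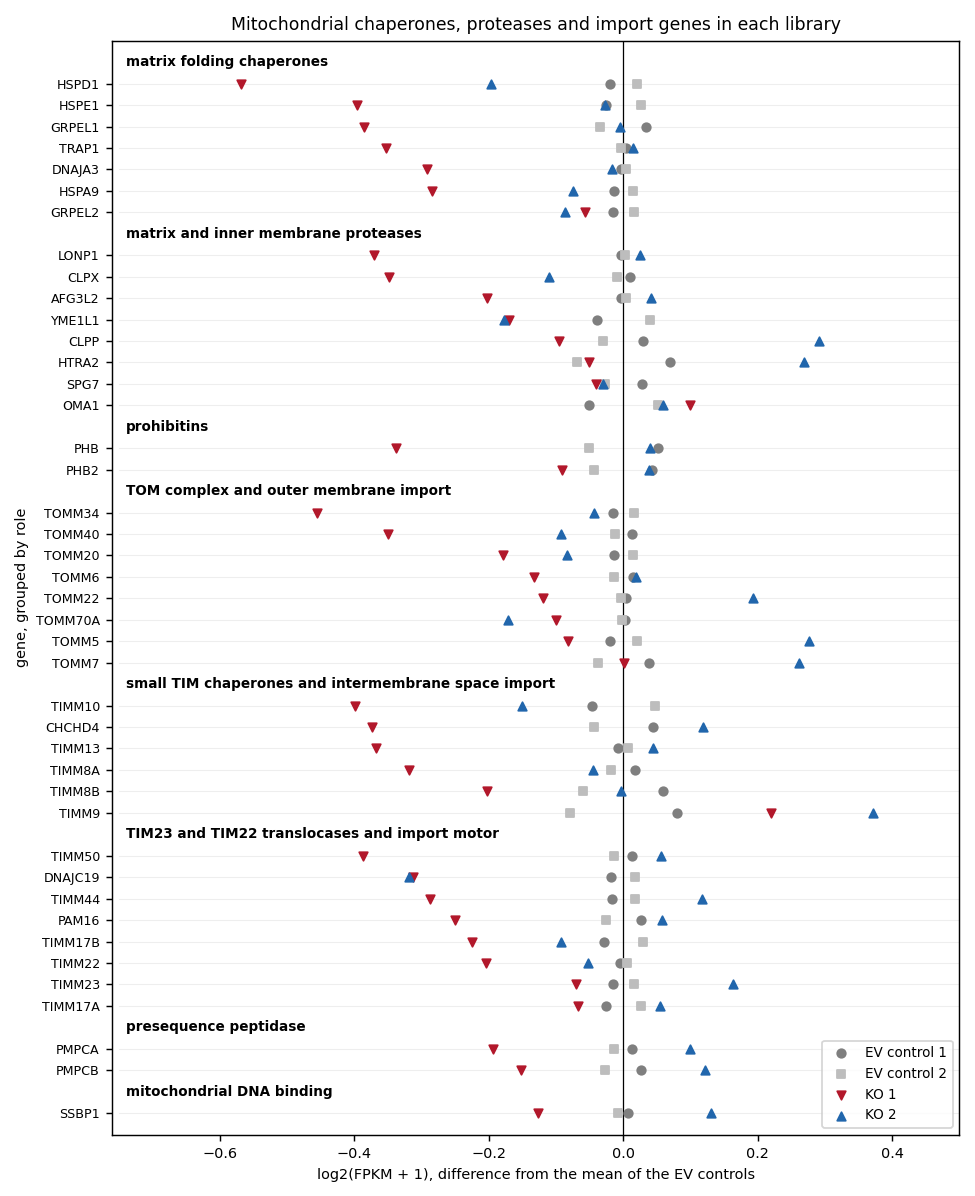
Each row is 1 of the 42 genes, grouped by role, and each point 1 library; the horizontal axis is log2(FPKM + 1) minus the mean of the EV controls. KO 1 (red) lies left of both EV controls for 38 genes, KO 2 (blue) for 17, and the KO libraries coincide at DNAJC19.

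**Figure D2:**
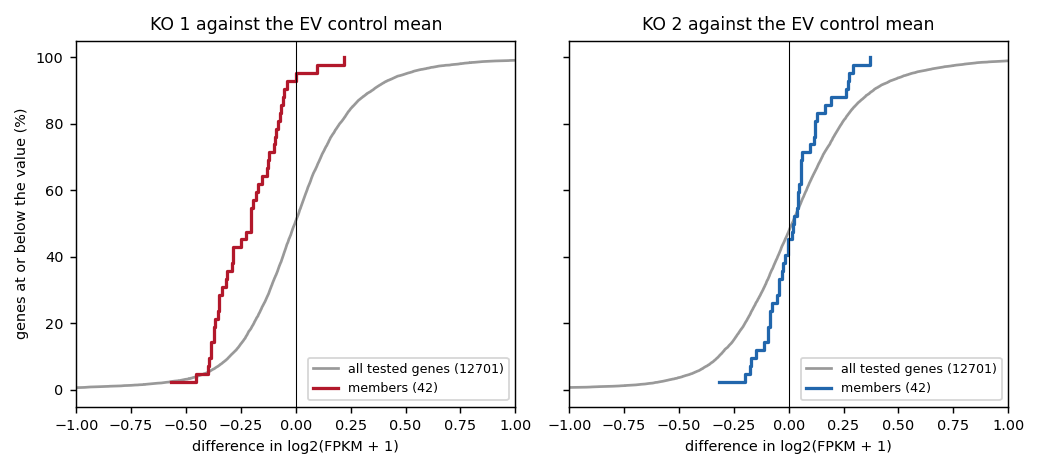
Cumulative share of genes (vertical axis, %) by difference from the EV control mean in log2(FPKM + 1), for KO 1 and KO 2, cropped at -1 and 1. The curve of the 42 genes (members) lies left of that of all 12701 tested genes over most of its course in KO 1 (medians -0.20 and -0.0043) and crosses it near 0 in KO 2 (0.022 and 0.014).

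The matrix folding chaperones had the lowest median of the role groups in KO 1 (-0.35 over 7 genes, -0.027 in KO 2). The small TIM chaperones with CHCHD4 were close to them in KO 1 (-0.34 over 6 genes, 0.020 in KO 2). HSPD1, the chaperonin that encloses unfolded matrix proteins and the most abundant member, had 1018 and 1047 FPKM in the EV controls, 696 in KO 1 and 900 in KO 2. Both KO libraries were below both controls, at 67.4% and 87.2% of the control mean. The group difference was -0.38 (SE 0.16) and did not pass (adjusted p = 0.329), while KO 1 alone did (limma-trend adjusted p = 0.0107). HSPE1, its lid, had 543 and 563 FPKM in the controls, 420 in KO 1 and 542.8 in KO 2. KO 1 was lowest, whereas KO 2 lay within 1 FPKM of the lower control (adjusted p = 0.526 for the groups, 0.0204 for KO 1 alone). HSPD1 and HSPE1 have processed pseudogenes, with which reads can be shared, so their absolute levels are uncertain.

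HSPA9, the mortalin chaperone that works both in the import motor and in folding, had 212 and 216 FPKM in the controls, 176 in KO 1 and 203 in KO 2. Both KO libraries were lower, KO 1 more so (82.0% and 94.9% of the control mean, adjusted p = 0.447 for the groups and 0.0320 for KO 1 alone). Its nucleotide exchange factor GRPEL1 had 85.0 and 81.0 FPKM in the controls, 63.3 in KO 1 and 82.7 in KO 2, which is between the controls. The paralog GRPEL2 was lower than both controls by a small margin in each KO library (16.3 and 16.7 FPKM, then 15.8 and 15.5) and did not pass in either. TRAP1, the mitochondrial member of the HSP90 family, had 185 and 184 FPKM in the controls, 144 in KO 1 and 187 in KO 2. DNAJA3, a J-domain partner of mortalin, had 52.3 and 52.6, then 42.6 and 51.8 FPKM. For TRAP1, DNAJA3 and GRPEL1 the low value was thus that of KO 1, at 78.2%, 81.3% and 76.3% of the control mean.

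Among 8 proteases the picture was mixed. LONP1, which degrades oxidised and misfolded matrix proteins, had 63.1 and 63.4 FPKM in the EV controls, 48.7 in KO 1 and 64.4 in KO 2. The groups overlapped, since KO 2 lay above both controls while KO 1 was at 77.0% of their mean (adjusted p = 0.582 for the groups, 0.0213 for KO 1 alone). CLPX, the unfoldase that feeds CLPP, had 30.2 and 29.8 FPKM in the controls, 23.3 in KO 1 and 27.7 in KO 2, so both KO libraries were lower. CLPP, the peptidase that it feeds, had 51.1 and 49.0 FPKM in the controls, 46.8 in KO 1 and 61.5 in KO 2. KO 1 and KO 2 thus lay on either side of the controls for CLPP (adjusted p = 0.755 for the groups, 0.0365 for KO 2 alone).

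Of the inner membrane proteases, YME1L1, whose catalytic site faces the intermembrane space, had 55.1 and 58.2 FPKM in the EV controls, 50.2 in KO 1 and 49.9 in KO 2. The KO libraries were nearly equal and both lower, by -0.17 (SE 0.077), which did not pass (adjusted p = 0.346). AFG3L2 and SPG7 form the protease that faces the matrix. AFG3L2 had 43.3 and 43.5 FPKM in the controls, 37.5 in KO 1 and 44.6 in KO 2, and SPG7 ranged from 34.6 to 36.3 FPKM over all 4 libraries. OMA1, the stress-activated protease that cuts the fusion factor OPA1, had 17.5 and 18.9 FPKM, then 19.5 and 18.98. HTRA2, a serine protease of the intermembrane space, had 13.7 and 12.4, then 12.5 and 15.9 FPKM. Neither passed in any of these 3 fits. The prohibitins form a ring scaffold in the inner membrane: PHB had 276 and 257 FPKM in the controls, 211 in KO 1 and 274 in KO 2, and PHB2 306 to 336 FPKM over the 4 libraries. PHB was thus low in KO 1 alone (adjusted p = 0.0347), and PHB2 stood at 93.8% and 102.7% of the control mean.

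**Figure D3:**
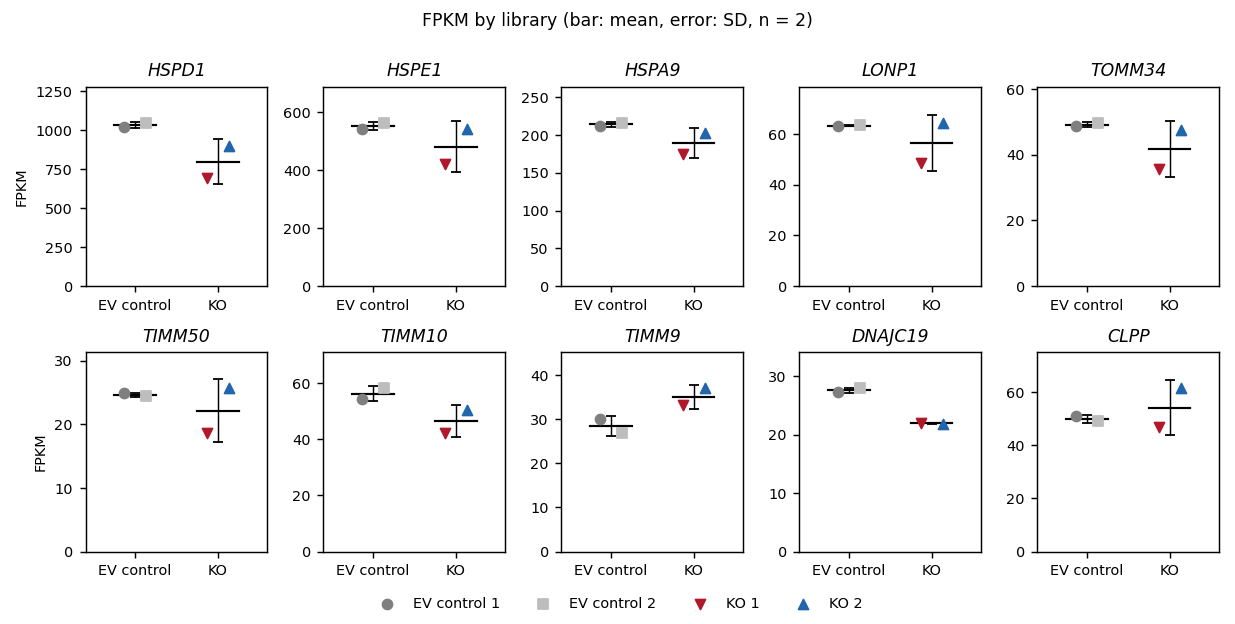
FPKM (vertical axes, from 0) of 10 genes in each of the 4 libraries; horizontal bars are group means and error bars SD (n = 2). For HSPE1, LONP1, TOMM34, TIMM50 and CLPP the KO error bar comes from the distance between KO 1 (lower) and KO 2, while for DNAJC19 the KO libraries lie together at 22.004 and 21.9 FPKM.

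At the outer membrane, the 8 genes had a median difference of -0.13 in KO 1 and -0.012 in KO 2, and none passed with all libraries. TOMM40, the channel itself, had 104 and 102 FPKM in the EV controls, 80.8 in KO 1 and 96.8 in KO 2. Both KO libraries were lower, and KO 1 passed alone (adjusted p = 0.388 for the groups, 0.0219 for KO 1). TOMM34, a cytosolic co-chaperone of import, had 48.6 and 49.7 FPKM in the controls, 35.6 in KO 1 and 47.6 in KO 2. It had the second lowest value in KO 1, at 72.4% of the control mean (adjusted p = 0.0152 for KO 1 alone). The receptors TOMM20 (116 and 118, then 103 and 110 FPKM) and TOMM70A (35.0 and 34.9, then 32.6 and 30.9 FPKM) were lower in both KO libraries. Neither receptor passed in any fit.

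TOMM5 and TOMM7, small subunits that stabilise the complex, were higher in KO 2 (by 0.28 and 0.26 on the log2 scale). KO 2 lay above both controls for 45.7% of tested genes. TOMM5 had 205 and 211 FPKM in the EV controls, 196 in KO 1 and 252 in KO 2. TOMM7 had 259 and 246 FPKM in the controls, 253 in KO 1 and 303 in KO 2. KO 2 was thus the highest library for both, and KO 1 was near the controls. TOMM22, the central receptor, had 129 and 128, then 118 and 147 FPKM, and TOMM6 had 217 and 213, then 196 and 218 FPKM. Cytosolic ribosomal proteins were likewise higher in KO 2, with a median difference of 0.26 over 76 genes (26 called higher in KO 2 alone and 0 in KO 1 alone, against 10.9% and 6.29% of tested genes), and the part of that shift in the TOM values was not tested.

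The small TIM chaperones escort hydrophobic proteins across the intermembrane space, TIMM9 with TIMM10 and TIMM8A with TIMM13. TIMM9 had 30.1 and 26.8 FPKM in the EV controls, 33.2 in KO 1 and 37.0 in KO 2. Both KO libraries were above both controls, by 0.30 (SE 0.10), with an unadjusted p of 0.0348 that did not pass (adjusted p = 0.279). TIMM10 had 54.5 and 58.2 FPKM in the controls, 42.4 in KO 1 and 50.6 in KO 2. Here both KO libraries were below both controls (log2 difference -0.27, SE 0.11, adjusted p = 0.321 for the groups, 0.0262 for KO 1 alone). TIMM13 had 33.2 and 33.6 FPKM, then 25.7 and 34.5, and TIMM8A had 19.4 and 18.9, then 15.1 and 18.5. Both were low in KO 1 and close to the controls in KO 2. TIMM8B had 66.4 and 61.1, then 55.2 and 63.5 FPKM. CHCHD4, the oxidoreductase that traps such proteins by disulfide bonds, had 22.02 and 20.7 FPKM in the controls, 16.2 in KO 1 and 23.2 in KO 2, the widest distance between KO libraries of all 42 genes (0.49 on the log2 scale).

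In the inner membrane, DNAJC19 was the member with the smallest p-value. It encodes a J-domain protein, known as a counterpart of the yeast motor subunit Pam18, and had 27.2 and 27.9 FPKM in the EV controls, 22.004 in KO 1 and 21.9 in KO 2. The KO libraries agreed to within the distance of the control pair and stood at 79.8% and 79.4% of the control mean. The difference was -0.32 (SE 0.074, unadjusted p = 0.00866) and did not pass over all genes (adjusted p = 0.208), whereas each KO library alone did (0.0391 and 0.0343). PAM16, its partner in the motor, had 55.3 and 53.3 FPKM in the controls, 45.4 in KO 1 and 56.5 in KO 2, so its groups overlapped.

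TIMM50, the receptor for targeting sequences in the TIM23 complex, had 24.9 and 24.4 FPKM in the EV controls, 18.6 in KO 1 and 25.7 in KO 2. TIMM44, which tethers mortalin to the channel, had 43.2 and 44.3 FPKM in the controls, 35.7 in KO 1 and 47.5 in KO 2. Both were low in KO 1 alone (adjusted p = 0.0266 and 0.0399) and above both controls in KO 2. The channel gene TIMM23 had 45.7 and 46.7, then 43.9 and 51.8 FPKM (adjusted p = 0.844), a level that is uncertain because the near-identical TIMM23B, listed at 3.26 to 4.81 FPKM, can share its reads. TIMM17A had 84.1 to 91.6 FPKM over all 4 libraries. Its paralog TIMM17B, the lowest of the 42 genes, had 11.3 and 11.8 FPKM in the controls, then 9.78 and 10.8. TIMM22, the carrier translocase, had 20.5 and 20.7, then 17.8 and 19.9 FPKM.

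The presequence peptidase is made of the subunits PMPCA and PMPCB. PMPCA had 60.1 and 59.0 FPKM in the EV controls, 51.96 in KO 1 and 63.8 in KO 2, and PMPCB 29.2 and 28.1, then 25.7 and 31.3 FPKM. SSBP1, which binds single-stranded mitochondrial DNA, had 199 and 196 FPKM, then 181 and 216. In these 3 genes KO 1 was below and KO 2 above both controls, and none passed in any fit.

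Ratios between partner genes were computed for 12 pairs, chosen after the values were seen. An exact two-sided permutation test of 2 against 2 libraries cannot go below p = 0.333 (0.571 after Benjamini-Hochberg adjustment over the pairs). The groups did not overlap for 7 of the 12, near the 52% found over all pairs of tested genes, so the count says nothing particular about these partners. The TIMM9 to TIMM10 ratio in FPKM was 0.552 and 0.461 in the EV controls and 0.783 and 0.732 in the KO libraries, the largest shift among the pairs. HSPD1 to HSPE1 gave 1.87 and 1.86 in the controls and 1.66 in both KO libraries. The chaperonin and its lid thus kept a like ratio in KO 1 and KO 2 although both levels differed between them. CLPX to CLPP gave 0.590 and 0.607, then 0.498 and 0.450, and TOMM22 to TOMM40 gave 1.24 and 1.25, then 1.46 and 1.52. PMPCA to PMPCB stayed between 2.02 and 2.10 in all 4 libraries.

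**Figure D4:**
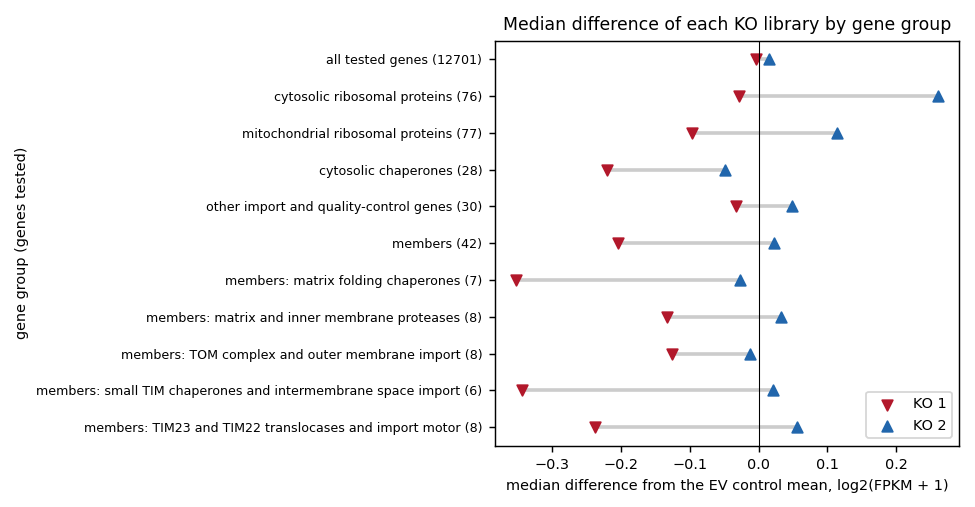
Median difference of KO 1 and KO 2 from the EV control mean in log2(FPKM + 1), by gene group, with the number of tested genes in brackets and the 42 genes marked as members. Matrix folding chaperones lie farthest left in KO 1 (-0.35), close to the small TIM group (-0.34). Cytosolic ribosomal proteins lie farthest right in KO 2 (0.26).

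Other genes of import and quality control, from a list of 30, did not share the low median of KO 1 (-0.033, and 0.049 in KO 2), and this difference between lists was not tested. Single genes of this list still differed in KO 1, from -0.53 for TIMM21 to 0.42 for PINK1. None of them passed with all libraries (limma-trend, 0 higher and 0 lower, smallest adjusted p = 0.190), and at an unadjusted p under 0.05 there were 3 higher and 2 lower, against 9.23% and 7.22% of tested genes. PINK1, the kinase that marks depolarised mitochondria, had 7.41 and 7.95 FPKM in the EV controls, 10.6 in KO 1 and 10.5 in KO 2. IMMP2L, an inner membrane peptidase, had 8.95 and 9.03, then 11.97 and 11.99 FPKM. TIMM10B, a small TIM of the TIM22 complex, had 14.9 and 15.3, then 11.5 and 11.7 FPKM. For these 3 genes the KO libraries lay close together and apart from the controls, as for DNAJC19. Their log2 differences were 0.42, 0.38 and -0.35 (limma-trend adjusted p = 0.190, 0.190 and 0.203). They were picked, like DNAJC19, by small p-values, a choice that itself favours such a pattern. DNAJC15, a paralog of DNAJC19, had 7.40 and 7.77, then 9.14 and 9.62 FPKM (log2 difference 0.27, adjusted p = 0.257).

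Cytosolic chaperones had a median of -0.22 in KO 1 and -0.049 in KO 2 over 28 genes. Of these, 11 were lower and 1 higher in KO 1 alone (6.94% and 6.29% of tested genes), and 1 was lower and 2 higher in KO 2 alone (6.62% and 10.9%). Mitochondrial ribosomal proteins had medians of -0.097 and 0.11 over 77 genes. Of these, 10 were lower and 2 higher in KO 1 alone, and 1 was lower and 15 higher in KO 2 alone, to be read against the same shares. No difference between these lists was tested. These comparisons share the control libraries and are given side by side only.

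Regulators of mitochondrial stress and biogenesis were listed as 23 genes, of which 21 were tested, 0 passed with all libraries (limma-trend), and the unadjusted p was under 0.05 for 2, both lower, where 7.22% of tested genes were lower. In KO 1 alone 4 of the 21 were lower (PPRC1, TFAM, YY1 and MYC), against 6.94% of tested genes. In KO 2 alone ATF5, PPRC1 and GDF15 were lower and CEBPB higher, against 6.62% and 10.9%. PPRC1, a coactivator of mitochondrial biogenesis, had 29.97 and 28.7 FPKM in the EV controls, 21.6 in KO 1 and 22.2 in KO 2 (log2 difference -0.41, SE 0.077, adjusted p = 0.183). TFAM, which packages and transcribes mitochondrial DNA, had 17.9 and 18.2, then 12.9 and 15.3 FPKM, and YY1 had 39.7 and 40.2, then 24.5 and 35.4. All 3 were lower in both KO libraries, YY1 and TFAM more so in KO 1. PPRC1, TFAM, YY1 and ATF5 were picked as the regulators with the smallest p-values. ATF5, a factor of the mitochondrial unfolded protein response, had 17.4 and 17.5 FPKM in the controls, 15.4 in KO 1 and 10.4 in KO 2.

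Of the other regulators, those given here were chosen after their values were seen. ATF4 had 442 and 429 FPKM in the EV controls, 446 in KO 1 and 487 in KO 2. DDIT3, the CHOP factor, had 18.0 and 18.1, then 15.0 and 19.2 FPKM, and HSF1 had 48.1 to 51.9 FPKM over all libraries. MYC, a factor that binds E-boxes, had 203 and 187 FPKM in the controls, 123 in KO 1 and 227 in KO 2 (adjusted p = 0.730 for the groups, 0.0101 for KO 1 alone). KO 1 was thus below both controls for MYC and KO 2 above both. NRF1 had 9.14 and 9.16 FPKM in the controls, 7.43 in KO 1 and 8.92 in KO 2. GABPA had 10.7 and 12.4, then 10.5 and 9.13 FPKM. For NRF1 and GABPA both KO libraries were below both controls.

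The 7 import and chaperone genes with an E-box in the promoter window had a median of -0.37 in KO 1 and -0.075 in KO 2, and the 30 without had -0.20 and 0.043. HSPD1 and HSPE1 enter the E-box and NRF1 medians of the members as separate genes, although they share these sites. Over tested genes with a window the E-box medians were -0.046 in KO 1 and -0.0048 in KO 2, and those without it -0.0012 and 0.014. The E-box did not stand apart there: CCGGAAGT gave -0.048 and -0.024 with it, and -0.0012 and 0.016 without. The NRF1 letters gave -0.035 and 0.0032, against -0.0011 and 0.013 without. CCAAT gave -0.0053 and 0.0070, against -0.0079 and 0.015 without. Members with the NRF1 letters had -0.32 in KO 1 and -0.029 in KO 2, against -0.20 and 0.041 without. Members with CCAAT had -0.29 and -0.017, against -0.20 and 0.032 without. For CCGGAAGT the order was the other way in KO 1 only, -0.13 with and -0.29 without. In KO 2 its members had -0.084, against 0.040 without. The part of any factor in the values of KO 1 or KO 2, MYC and ATF5 included, was not tested.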

How the data were processed

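RNA sequencing of 4 HCT116 libraries was used, 2 EV controls and 2 C14orf159 knockouts, grouped by their titles. Each deposited file gives one FPKM value for a gene symbol. The submitters' processing notes name Cuffnorm 2.2.1, TopHat2 2.0.13, SAMtools 0.1.19, Bowtie2 2.2.3 and the build hg19. Annotation, strand use and library scaling were not given in the sources used here. File headers do not name the unit, which was inferred from these tools and the values.

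Genes with at least 1 FPKM in at least 2 libraries were tested on log2(FPKM + 1), a scale that understates changes of low genes. The test was limma 3.58.1 (trend, R 4.3.3) with group as the sole term and Benjamini-Hochberg adjustment over all 12701 genes at 0.05. It was checked on data simulated with equal spread in both groups and changes larger than those of the members. That check therefore does not cover the unequal spread and small differences seen here. Differences are KO minus EV control. Depth was estimated from FPKM times transcript length (GENCODE 29) between 0.06 and 0.1, a preset window that bounds the estimate.

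The members and lists were chosen with earlier results of these data known. Described in full were the members with the 10 smallest p-values, the 5 with the widest distance between KO libraries and 8 chosen for their roles. From each further list the 4 genes with the smallest p-values were added. All others are given by values. The 14 alternatives covered pseudocounts, filters, scaling, the variance model, small RNA genes, a replicate block and leaving out each library. Promoters came from the RefSeq table.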

Additional observations from a re-analysis of the deposited data

How the results depend on the processing

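With all 4 libraries kept, no import or chaperone gene passed at an adjusted p under 0.05 in any of the 10 other settings, and their median log2 difference lay between -0.14 and -0.13. The 2 further lists also gave 0 calls there. Leaving out each library in turn gave 0 to 4 higher and 0 to 18 lower calls among the 42 genes, a median from -0.20 to 0.022, and at an unadjusted p under 0.05 from 0 to 7 higher and from 0 to 26 lower genes. The upper ends came without KO 1 for higher calls and without KO 2 for lower ones. Over all tested genes the ranges were 6 to 1381 higher and 5 to 881 lower, for other import genes 0 to 5 and 0 to 3 with medians from -0.033 to 0.049, and for stress regulators 0 to 1 and 0 to 4. The difference of C14orf159 ranged from -2.30 to -0.55. The direction turned for 14 of the 42 genes without KO 1 and for 6 without KO 2. Among the genes described in full, it turned without KO 1 for CHCHD4 (0.12, range -0.37 to 0.12 over the left-out libraries), TIMM50 (0.056, from -0.39), TIMM13 (0.045, from -0.37), TIMM44 (0.12, from -0.29) and LONP1 (0.025, from -0.37). Among these it turned without KO 2 for CLPP (-0.095, up to 0.29) and TIMM23 (-0.071, up to 0.16).

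Members lower at an unadjusted p under 0.05 numbered 2 with no filter, with median-of-ratios scaling or without small RNA genes, and 7 with quantile normalization, instead of 1. Calls over all genes, 7 in each direction, became 3 higher and 3 lower with no filter, 3 higher in limma without the trend, 4 lower with quantile normalization and 0 in each direction in limma-trend without small RNA genes (1225 higher and 945 lower there at an unadjusted p under 0.05). With a replicate block there were 4 higher genes in all, and of the 42 genes the unadjusted p was under 0.05 for 0 higher and 1 lower. The labels link same-numbered libraries by number only. The correlation of their deviations was -0.0046 over tested genes, which does not settle whether they were handled together. The cause of these shifts was not tested. Depth limits low genes most, and all 42 genes had a control mean of at least 11.6 FPKM.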
